A study of Mus musculus with 2 samples.

Results

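The nuclear genes of the mitochondrial respiratory chain were read in injured kidney of wild-type mice and of mice that lack estrogen sulfotransferase (EST KO), grouped by the complex their proteins build. EST, encoded by Sult1e1, attaches sulfate to estrogens. Members were chosen by name alone: every probe set with 1 gene symbol that begins with Nduf, Uqcr, Atp5 or Cox and a digit, or that is Sdha to Sdhd, Cyc1 or Cycs. This gave 100 genes, read by 202 probe sets, out of 18195 genes named by 1 symbol on the array. They comprised 42 genes of complex I, 4 of complex II, 10 of complex III with cytochrome c, 27 of complex IV and 17 of complex V.

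The array data came from male C57BL/6 mice aged 8 weeks whose kidneys were made ischemic on both sides for 30 min (warm ischemia) and collected 24 h later, a model of acute kidney injury. The WT pool combined 180 mg of renal tissue from 3 mice and the EST KO pool 124 mg from 6, and each pool was hybridised to 1 array, so the difference between mice was not measured and no test between genotypes is possible. Both pools were injured, so no value compares injured with uninjured kidney, and how the Sult1e1 allele was disrupted and in which cells is not given in the sources used here. One protocol text names liver for the EST KO pool, whereas its description, source and tissue fields name kidney. The 5 hepatocyte markers on the array did not go one way. Alb (487.9 for WT and 522.3 for EST KO) and Apoa1 (144.1 and 116.1) lay below background in both pools. Cps1 read 730.7 and 811.7, just above it, and Apob 778.6 and 475.1, the latter below it. Ttr, the thyroid hormone carrier transthyretin, read 1716 and 11957, 6.97-fold higher in the EST KO pool. Of 14 proximal tubule markers, 13 lay above background in at least 1 pool. Whether the EST KO pool held any liver tissue was not tested beyond these values.

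Complex I takes electrons from NADH and complex II from succinate, and both pass them to ubiquinone. Complex III moves them on to cytochrome c, complex IV hands them to oxygen, and complex V, the ATP synthase, uses the proton gradient that complexes I, III and IV build. Tubule cells of the kidney, above all those of the proximal tubule and the thick ascending limb, are rich in mitochondria and depend on this pathway for the energy of salt and solute reabsorption. Some members are not subunits but assembly factors that help to build a complex, and some are isoforms known from heart, muscle, lung or testis.

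All values are linear intensities. Each gene was read from its brightest probe set, and it was called measured where it exceeded background, 676.1 (WT) and 638.3 (EST KO), in at least 1 of them. Background was taken from 129 probe sets of receptor and keratin-associated families with little expected expression here, at their 95th percentile. Probe sets differ in how brightly they read the same amount of RNA, so intensities are compared between pools and not between genes. The log2 ratio is EST KO minus WT, with a value below background set to background. In whole tissue, fewer cells of a type and less RNA per cell cannot be told apart.

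Subunits of complexes I, II, III and V were mostly higher in the EST KO pool, whereas subunits of complex IV differed little. Assembly factors had no common direction. Those measured were lower for 4 of 4 in complex I and higher for 5 of 6 in complex IV, there with a median log2 ratio of 0.10. Of 100 genes 86 were measured, 71 of them higher and 15 lower in the EST KO pool, with a median log2 ratio of 0.36 (1.28-fold). Over all 7480 measured genes, 43.6% had a ratio above 1 and the median log2 ratio was −0.06. A ratio of at least 1.5-fold higher was reached by 17 members, against 8.46% of all measured genes, and at least 1.5-fold lower by 0 members, against 7.43%. Only Ndufb10 and Ndufab1 were at least 2-fold higher, a size that 3.02% of all measured genes reached. Most members are bright, so the brightest 25% of measured genes (1870 genes) give a second background. Of these 56.3% were higher and 43.7% lower, with a median log2 ratio of 0.08. A 1.5-fold excess was reached by 17.6% of them, a 2-fold excess by 7.38%, and a 1.5-fold deficit by 6.90%. The members' 17 of 86 past 1.5-fold lies near that second background, whereas their 71 of 86 above 1 does not.

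**Figure D1:**
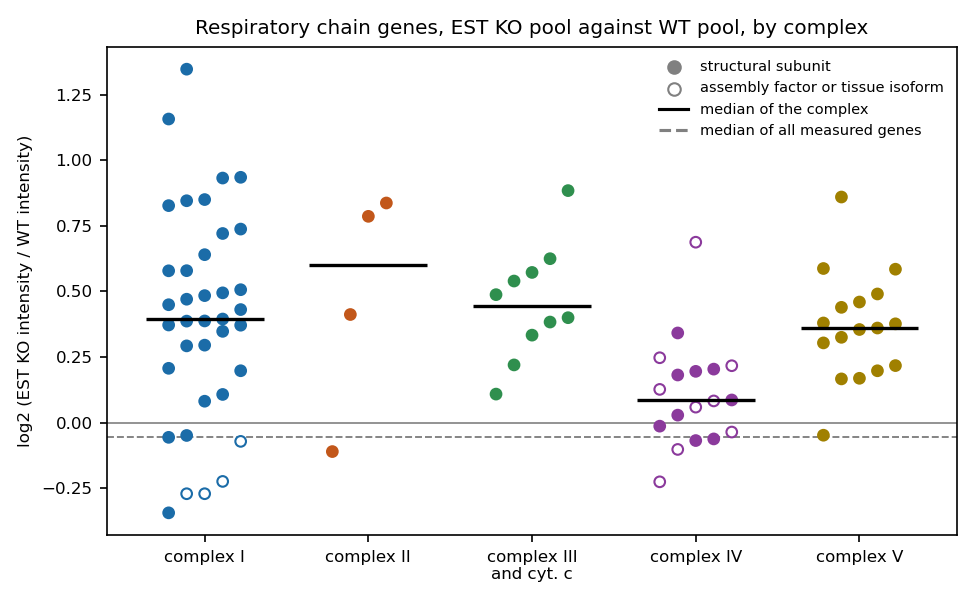
Log2 ratio of EST KO over WT intensity (vertical axis) for the 86 measured members, by complex; filled points are structural subunits, open points assembly factors, the supercomplex factor Cox7a2l or tissue isoforms, black bars are complex medians, and the dashed line is the median of all measured genes. Complex medians were 0.40, 0.60, 0.44 and 0.36 for complexes I, II, III and V and 0.08 for complex IV.

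Complex I was measured for 37 of 42 genes, with 30 higher and 7 lower in the EST KO pool and a median log2 ratio of 0.40 (1.31-fold). The catalytic core, whose subunits carry the flavin and the iron-sulfur clusters, was higher for 6 of 6 genes. Ndufs1, the largest of them, which holds iron-sulfur clusters of the electron path, read 1291 (WT) and 2328 (EST KO) (1.80-fold). Ndufs3, next to the ubiquinone site, read 2439 and 4020 (1.65-fold). The NADH-binding flavoprotein Ndufv1 read 2637 and 3716 (1.41-fold). All 3 of its probe sets were above background in both pools and higher in the EST KO pool. Its partner Ndufv2 read 4694 and 6329 (1.35-fold), Ndufs7 read 2771 and 3624 (1.31-fold) and Ndufs8 read 4682 and 5746 (1.23-fold). The 6 probe sets of Ndufs8 ranged from a log2 ratio of 0.00 to one of 0.74. The second probe set of Ndufs7 gave a log2 ratio of 0.05 against 0.39, so the size is uncertain for both genes.

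Accessory subunits of the matrix arm, which surround that core, were higher for 7 of 8 genes. Ndufa6 showed the widest gap, with 1623 (WT) and 3103 (EST KO) (1.91-fold). Ndufs4, which stabilises the NADH-oxidising module, read 1079 and 1534 (1.42-fold), and Ndufa9, near the junction of the arms, read 4010 and 5556 (1.39-fold). Ndufa5 (1142 and 1705), Ndufa2 (1465 and 2000.4), Ndufa12 (5989 and 7623) and Ndufv3 (3088 and 3542) lay between 1.15-fold and 1.49-fold higher. The exception was Ndufa7, which read 6906 and 5443 (1.27-fold lower). Its 5 probe sets above background had log2 ratios from −0.34 to 0.17, on both sides of 0.

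Accessory subunits of the membrane arm, the part that pumps protons, were higher for 16 of 18 measured genes, 6 of them by at least 1.5-fold. Ndufb10 had the highest ratio of all members, 1145 (WT) and 2912 (EST KO) (2.54-fold, 1 probe set). Ndufb2 read 2432 and 4640 (1.91-fold), Ndufc2 read 3720 and 6686 (1.80-fold), and Ndufb5 read 3499 and 6208 (1.77-fold). Each of these 3 had every probe set that was above background in both pools higher in the EST KO pool. Ndufa8 (3136 and 5229) and Ndufs5 (1427 and 2224) were 1.67-fold and 1.56-fold higher. The other members of the arm lay below 1.5-fold at their brightest probe sets. Second probe sets of Ndufc1, Ndufb9 and Ndufb6 exceeded that size, with log2 ratios of 0.89, 0.74 and 0.65. Those of Ndufa3, Ndufb7 and Ndufb11 did not (0.02, 0.21 and 0.24). At the low end, Ndufb7 (2641 and 2553) and Ndufb1 (760 and 731) differed by less than 1.04-fold, and their sign changed with the scaling or the choice of probe set, as did that of Ndufa3 (1.08-fold) and Ndufb11 (1.06-fold) under quantile normalization.

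Ndufab1, the mitochondrial acyl carrier protein, sits in complex I and also serves fatty acid synthesis in the matrix. It read 1651 (WT) and 3681 (EST KO) (2.23-fold). Its other probe set above background read 750 and 1001, a log2 ratio of 0.42 against 1.16. The direction was shared between its probe sets and the size was not.

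At their brightest probe sets, complex I assembly factors went with the subunits in neither direction nor size. Of 8 genes only 4 were measured, and all 4 were lower: Ndufaf1 (956 and 910), Ndufaf3 (897 and 768), Ndufaf4 (1099 and 911) and Ndufaf8 (1573 and 1304), by 1.05-fold to 1.21-fold. These differences lie within or near the spread of a single probe set (log2 0.22). A second probe set of Ndufaf4 went the other way, at 471.5 (WT, below background) and 641.2 (EST KO, just above it). Across all measured genes 54.6% were lower. Ndufaf1 turned to a log2 ratio of 0.03 when the trend of ratio on level was removed. The brightest probe sets of these 4 genes read closer to background than most subunits did, and the part this plays was not tested.

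**Figure D2:**
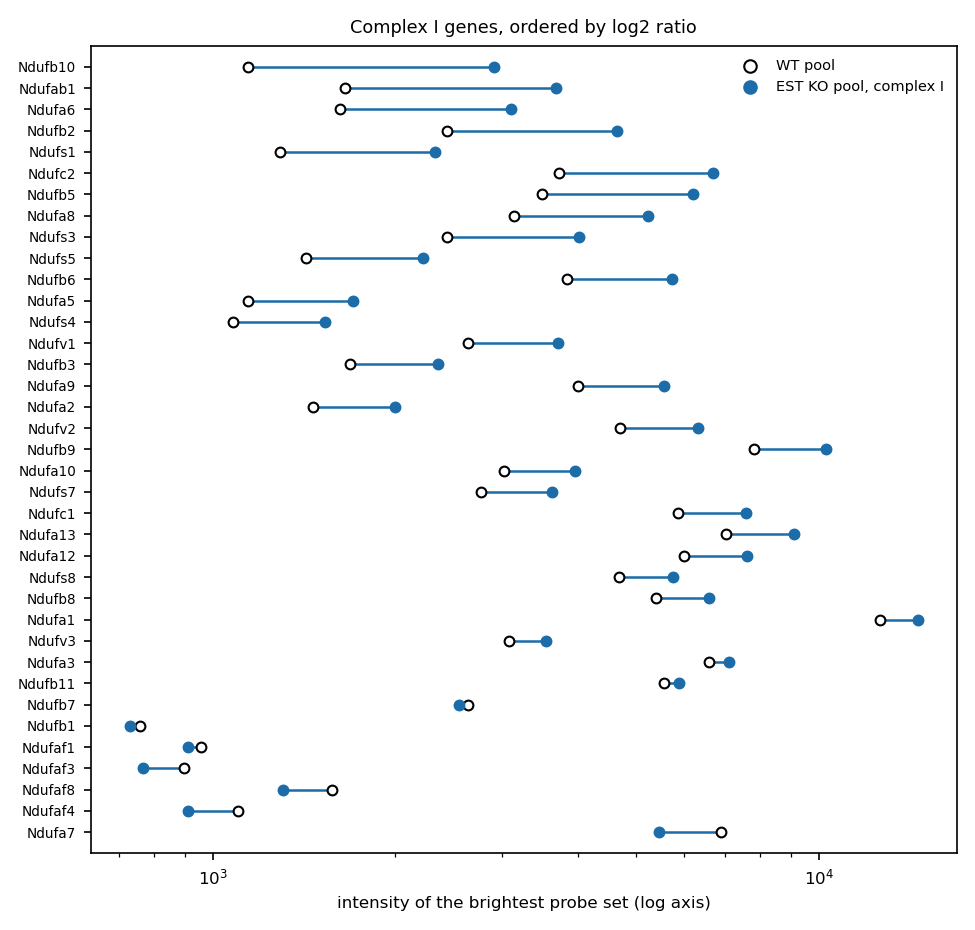
Intensity on a log axis in the WT pool (open points) and EST KO pool (filled points) for the 37 measured complex I genes, 1 gene a row, ordered by ratio, each point being 1 array. Ndufb10 at the top read 1145 and 2912, and the 4 assembly factors lie among the 7 rows at the bottom in which the EST KO point is to the left.

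Complex II, the only complex that also works in the citric acid cycle, was higher for 3 of 4 genes, with the highest median of the complexes (log2 0.60, 1.52-fold). Sdhb, its iron-sulfur subunit, read 4635 (WT) and 7995 (EST KO) (1.72-fold). Sdhc, a membrane anchor, read 2293 and 4097 (1.79-fold), and its second probe set gave a log2 ratio of 0.46 against 0.84. Sdhd, the other anchor, read 2552 and 3396 (1.33-fold). Sdha, the flavoprotein that oxidises succinate, had no settled direction: its brightest probe set read 5434 and 5035 and its second read 2573 and 3323, log2 ratios of −0.11 and 0.37.

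Complex III and cytochrome c were higher for all 10 genes, with a median log2 ratio of 0.44 (1.36-fold). At the brightest probe sets, the redox subunits had the highest ratios. Uqcrfs1, the Rieske iron-sulfur protein, read 3781 (WT) and 6981 (EST KO) (1.85-fold), and Cyc1, cytochrome c1, read 7518 and 11593 (1.54-fold). The core proteins Uqcrc1 (6236 and 9066) and Uqcrc2 (6017 and 8949) were 1.45-fold and 1.49-fold higher. The second probe set of Uqcrc2 read 3479 and 6892, a log2 ratio of 0.99, above the 0.88 of Uqcrfs1. Cycs, the cytochrome c that carries electrons between complexes III and IV and can start apoptosis when released, read 15304 and 21462 (1.40-fold), and its 3 probe sets above background had log2 ratios of 0.49, 0.54 and 0.70. The 5 small subunits lay lower in this order, from Uqcrh (4507 and 4861, 1.08-fold) to Uqcr11 (2625 and 3463, 1.32-fold). Uqcrq, a small subunit as well, read 5894 and 7428 (1.26-fold). Uqcrh was the 1 gene of the 10 whose sign changed with scaling, to −0.08 under quantile normalization. Uqcrb, needed for complex III assembly, read 17565 and 20461 at its brightest probe set (log2 0.22) and 2107 and 3383 at its second (log2 0.68).

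Complex IV, cytochrome c oxidase, differed least between the pools. Of 27 genes 18 were measured, 12 higher and 6 lower, with a median log2 ratio of 0.08 (1.06-fold). The 9 measured subunits that all tissues share had ratios between −0.07 and 0.34, and none reached 1.5-fold. Cox4i1, the largest nuclear subunit and a site of regulation by ATP, read 13933 (WT) and 14214 (EST KO). Cox5b read 14095 and 13445, with log2 ratios of −0.07 to 0.09 over its 4 probe sets above background. Cox6a1 read 21778 and 21580, and Ndufa4, which carries a complex I name but is now counted as a complex IV subunit, read 7414 and 7872. These 4 lay within 1.07-fold and their sign depended on the scaling or the probe set.

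Of the other shared subunits 4 were higher by small steps and Cox6c was lower. Cox5a, a subunit on the matrix side, read 12337 and 15637 (1.27-fold), and its 3 probe sets above background had log2 ratios of 0.31 to 0.39. Cox8a (9962 and 11477), Cox6b1 (11582 and 13265) and Cox7a2 (16194 and 18369) were 1.15-fold, 1.15-fold and 1.13-fold higher. Cox6c read 21075 and 20191 at its brightest probe set and 3632 and 2128 at another, a log2 ratio of −0.77. That was the lowest ratio of any member probe set above background in both pools. Cox7c, a shared subunit as well, lay below background in both pools (200.4 and 202.1) at its brightest probe set.

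Tissue isoforms of complex IV were mostly below background. Cox4i2, known from lung and hypoxia (448.7 and 488.0), the heart and muscle isoforms Cox7a1 (160.5 and 223.5) and Cox8b (63.8 and 109.5), the testis isoforms Cox6b2 and Cox7b2, and Ndufa4l2, a hypoxia-induced relative of Ndufa4 (350.9 and 297.6), all lay below it in both pools. The muscle isoform Cox6a2 read just above it, at 744.8 and 884.2. Cox8c, known from testis, read 2962 and 2890 at one probe set and 1277 and 634 at the other, the last value below background. Cox7a2l, which links complex III to complex IV in supercomplexes, read 2266 and 2111, with probe sets on both sides of 0 (log2 −0.10 to 0.17).

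Complex IV assembly factors held the only complex IV gene past 1.5-fold. Cox20, a chaperone of the mitochondrially encoded subunit 2, read 1307 (WT) and 2106 (EST KO) (1.61-fold). Cox18, which inserts the same subunit into the membrane, read 1306 and 1426 (1.09-fold). The copper chaperone Cox17 (1149 and 1198) and Cox10 (879 and 931), which makes heme O for the heme A group, differed by 1.04-fold and 1.06-fold. Cox19, another copper protein, read 1752 and 1499 (1.17-fold lower), and Cox16 (646.7 and 785.9) was at least 1.16-fold higher, its WT value being below background. Cox11 and Cox15 were below background in both pools. Of the measured complex IV assembly factors, 5 of 6 were higher, with a median log2 ratio of 0.10, against 0.09 for the shared subunits. Over both complexes with assembly factors, 10 of 16 such genes were measured, 5 higher and 5 lower, with a median log2 ratio of −0.01. That balance joins 2 unlike groups, since the 4 measured in complex I were all lower (median −0.25).

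Complex V was higher for 16 of 17 genes, with a median log2 ratio of 0.36 (1.28-fold). The F1 head, where ATP is made, was higher for 5 of 5 genes. Its alpha subunit Atp5a1 read 12236 (WT) and 18388 (EST KO) (log2 0.59), the catalytic beta subunit Atp5b read 13468 and 16876 (1.25-fold), and the gamma shaft Atp5c1 read 5779 and 8668 (log2 0.58). Atp5d (11727 and 14478) and Atp5e (2258 and 2889) were 1.23-fold and 1.28-fold higher. Second probe sets gave log2 ratios of 0.34 for Atp5a1 and 0.59 for Atp5d. The peripheral stalk, which holds the head still, was higher for 4 of 4 genes. At the brightest probe sets the span was narrow, from Atp5h (5248 and 6739, 1.28-fold) to Atp5o (4031 and 5664, 1.41-fold). The second probe set of Atp5pb lay above it (3668 and 5638, log2 0.62).

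The c ring turns with the passing protons, and 3 genes encode the same mature c subunit. Atp5g1 read 1819 and 3301 (1.82-fold), whereas Atp5g2 (4670 and 5251) and Atp5g3 (26005 and 29194) were each 1.12-fold higher, a lean that was lost under quantile normalization for Atp5g2 (log2 −0.03) and with the trend removed for Atp5g3 (log2 −0.00). Of the small membrane subunits, Atp5k, Atp5l, Atp5j2 and Atp5md had log2 ratios between 0.20 and 0.38 and Atp5mpl read 6898 and 6674, a difference of 1.03-fold. The probe sets of Atp5k disagreed (log2 0.38 and −0.13 for the 2 brightest), and those of Atp5j2 differed in size (log2 0.22 and 0.71). Atpif1, the protein that blocks the synthase from running backwards, is not named by the same rule and read 1481 and 2425 (1.64-fold), or log2 0.18 as the mean of its probe sets.

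**Figure D3:**
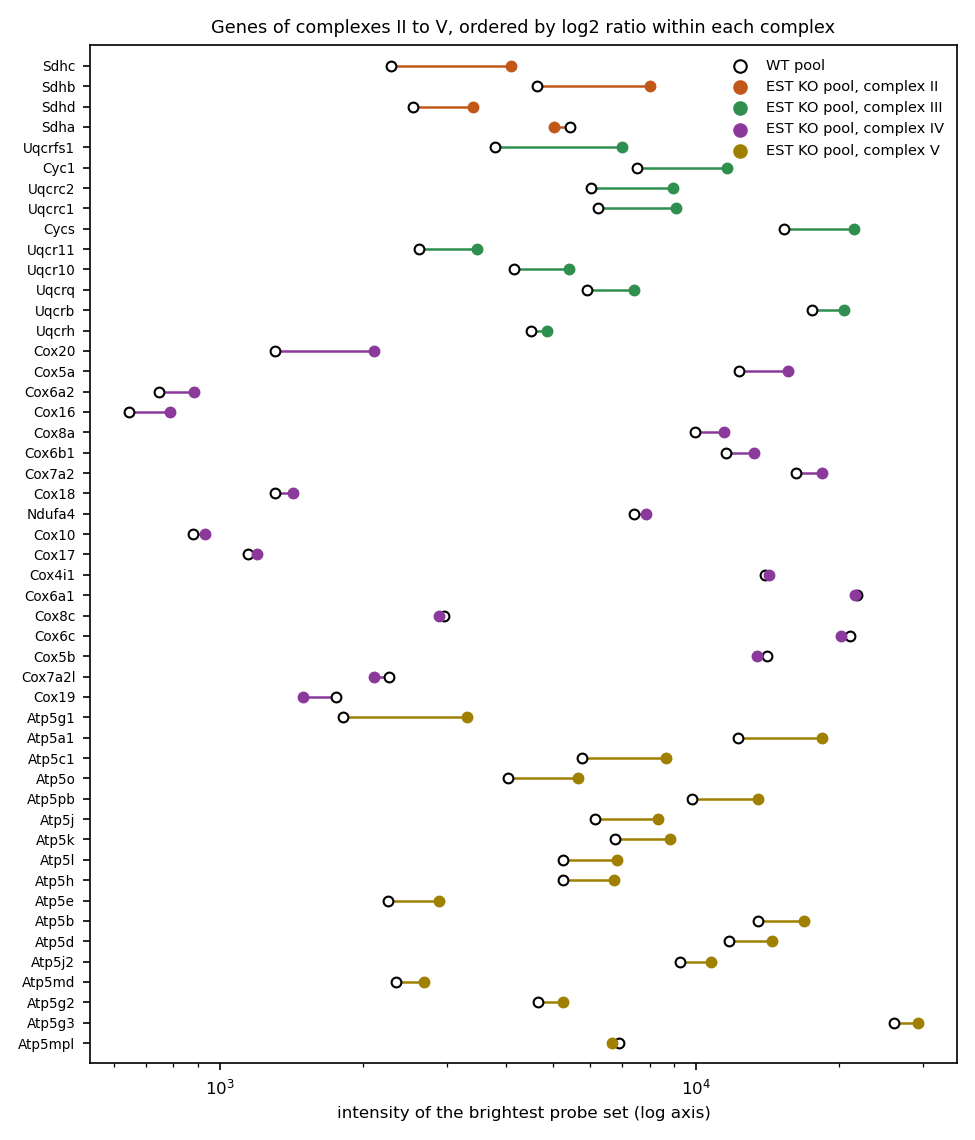
Intensity on a log axis in the WT pool (open points) and EST KO pool (filled points) for the 49 measured genes of complexes II to V, 1 gene a row, ordered by ratio within each complex, each point being 1 array. The pools lie apart in most rows of complexes II, III and V, for example 3781 and 6981 for Uqcrfs1, and nearly coincide for complex IV subunits such as Cox4i1 (13933 and 14214).

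The order of the complexes was kept in its low end. In each of 10 settings that gave all 5 medians, complex IV had the lowest median (0.03 to 0.14) and all 5 medians were above 0. Over the settings run for each complex, the other medians ranged from 0.23 to 0.47 for complex I and 0.43 to 0.65 for complex II. They ranged from 0.30 to 0.54 for complex III and 0.20 to 0.42 for complex V. The 0.54 came from the brighter members alone, which do not enter the complex II range. Complex II was highest in 9 of the 10, and without probe sets of the _s_at and _x_at kinds it stood at 0.43, below complex III at 0.49. Among the brighter members complex II stood at 0.34. With that value the ranges overlap, so complexes I, II, III and V have no settled order. Genes of a complex are not replicates of a genotype, so the gap between complex IV and the others is a description of these 2 arrays, with no test.

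The relation of ratio to brightness depended on which members were taken. Over all 86 measured members the correlation of log2 ratio with log2 mean intensity was 0.01 (Pearson) and −0.03 (Spearman). Over the 73 measured structural subunits it was −0.37 and −0.41, and over all 7346 measured genes with an order it was 0.19 and 0.18. These points share the same 2 arrays. Complex IV subunits are among the brightest probe sets, so the complexes were also compared among the 43 brighter members, those with a mean intensity of at least 4960.3. There the medians were 0.32 for complex I (12 genes), 0.54 for complex III (7 genes), 0.36 for complex V (13 genes) and 0.09 for complex IV (9 genes). Complex II had 2 genes there, Sdha and Sdhb, with a median of 0.34, below those of complexes III and V. Levels were not matched among the brighter members. Their mean intensities ran from 5203 to 13579 for complex I and from 7643 to 21679 for complex IV. The part of level in the gap of complex IV was therefore not tested. Among the 43 dimmer members the complex IV median was 0.08 over 9 genes, most of them assembly factors.

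Probe sets of one gene give the only error that 1 array per pool allows. For 38 members with at least 2 probe sets above background in both pools, all probe sets had the same sign in 31. The 2 brightest differed by a median of 0.23 on the log2 scale, and the spread of a single probe set came to 0.22 (SD), against 0.28 over 1663 genes of the whole array. The second brightest probe set had the higher ratio in 25 of the 38. The median over these members was 0.35 with the brightest probe set and 0.36 with the second, 0.40 and 0.56 for complex I, and 0.08 and 0.15 for complex IV. A single member under about 1.2-fold is therefore within this probe set spread. The spread comes from the same 2 arrays and holds no error between arrays or mice. A member above 1.2-fold is therefore not shown to exceed that error.

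**Figure D4:**
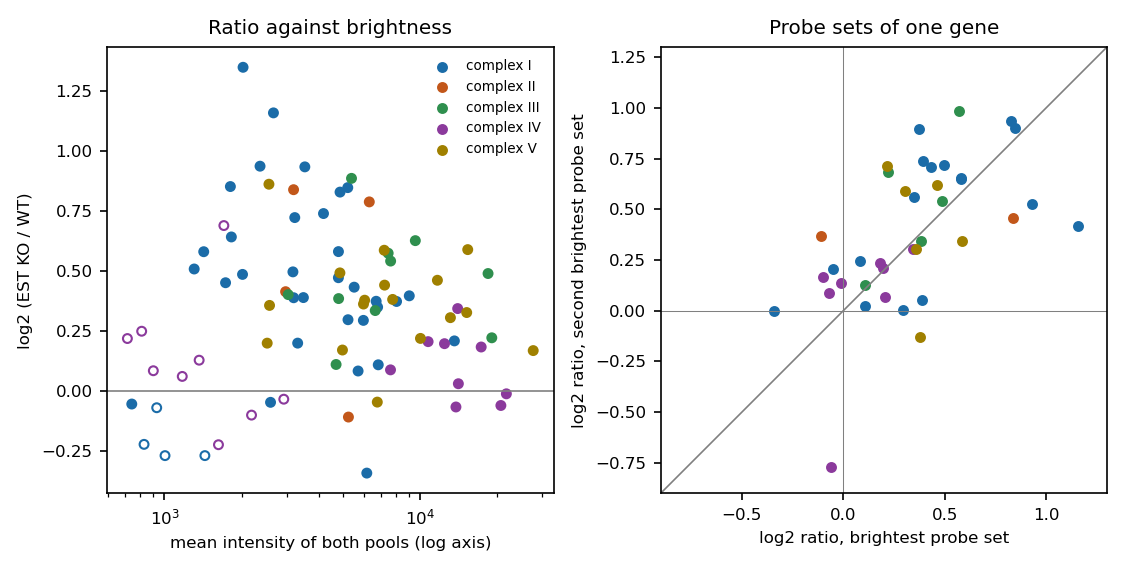
Left, log2 ratio (vertical axis) against the mean intensity of both pools (log axis) for the 86 measured members, open points being assembly factors, tissue isoforms or Cox7a2l; right, log2 ratio of the brightest against the second brightest probe set for 38 members, with the line of equality. Shared complex IV subunits lie between −0.07 and 0.34 at the bright end. There Cycs (0.49) and Atp5a1 (0.59) lie higher, and Atp5g3 (0.17), Ndufa1 (0.21), Uqcrb (0.22) and Atp5b (0.33) lie within that span. Most pairs of probe sets share their sign.

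Genes of ubiquinone synthesis and of electron delivery to ubiquinone were higher for 10 of 13 measured, with a median log2 ratio of 0.37. Prodh, the proline dehydrogenase, read 1361 (WT) and 4280 (EST KO) (3.15-fold), Etfa, which takes electrons from fatty acid oxidation, read 2073 and 3816 (1.84-fold), and Coq9, needed for ubiquinone synthesis, read 575.4 and 1094 (at least 1.62-fold). Genes of the outer membrane and of phosphate and adenine nucleotide exchange were higher for 8 of 11, with a median of 0.37. Among them the channel Vdac1 read 4089 and 13136 (3.21-fold), Cyb5b, an outer membrane cytochrome b5, read 1624 and 3034 (1.87-fold), and the nucleotide exchanger Slc25a4 read 3191 and 5565 (1.74-fold), whereas the import subunits went both ways, with Tomm20 at 9539 and 12354 (log2 0.37) and Tomm22, Tomm40 and Tomm70a 1.15-fold to 1.21-fold lower.

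Assembly factors with other names were balanced, with 9 higher and 9 lower of 18 measured and a median of −0.01. Tmem126a read 2014 and 3357 (1.67-fold), and Ttc19, which clears fragments of the Rieske protein, read 934 and 682 (1.37-fold lower). Regulators of respiratory genes were balanced as well, with 6 higher and 6 lower of 12 measured and a median of 0.06. Ppargc1a, the coactivator PGC-1 alpha, read 723.1 and 576.7, the latter below background, and was at least 1.13-fold lower. Esrra, an orphan receptor that works with it, lay below background in both pools (501.8 and 582.1). Tfam, which packages mitochondrial DNA, read 784 and 1046 (1.33-fold), Ppara, a receptor that drives fatty acid oxidation, read 674.6 and 1066 (at least 1.58-fold), Tfb2m, a mitochondrial transcription factor, read 980 and 1420 (1.45-fold), and the mitochondrial helicase Twnk read 1197 and 829 (1.44-fold lower). ND5, a mitochondrially encoded subunit of complex I and the only such gene named by a single symbol, read 26284 and 27159 (1.03-fold), and turned to −0.12 with the trend removed.

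Cell type markers differed between the pools as well, in both directions, and their part in the result was not tested. All 13 measured proximal tubule markers of 14 on the array were higher in the EST KO pool, 11 by at least 1.5-fold, with a median log2 ratio of 0.95, and their summed intensity was 75224 (WT) and 152312 (EST KO). Loop and distal nephron markers, some of them of segments also rich in mitochondria, were 4 higher and 3 lower of 7 measured. Their median log2 ratio was 0.26, and they summed to 40761 and 41570. Umod, at 25568 and 22735, makes up most of that sum, whereas Slc12a1, the salt transporter of the thick ascending limb, read 2965 and 6776 (2.28-fold). Tubular injury markers were lower for 5 of 5, from 90930 to 46676 in sum. Endothelial (6 of 6), myeloid (7 of 7) and fibroblast and matrix markers (5 of 6) were lower, with sums of 9294 and 7155, 14824 and 8681, and 10043 and 6021. Only 1 of 4 lymphocyte and 1 of 3 podocyte markers were measured, each lower in the EST KO pool. No marker read exactly 0. All 4 muscle and heart markers (Ckm, Myh7, Actn2 and Tnni3) and both red cell markers lay below background in both pools.

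**Figure D5:**
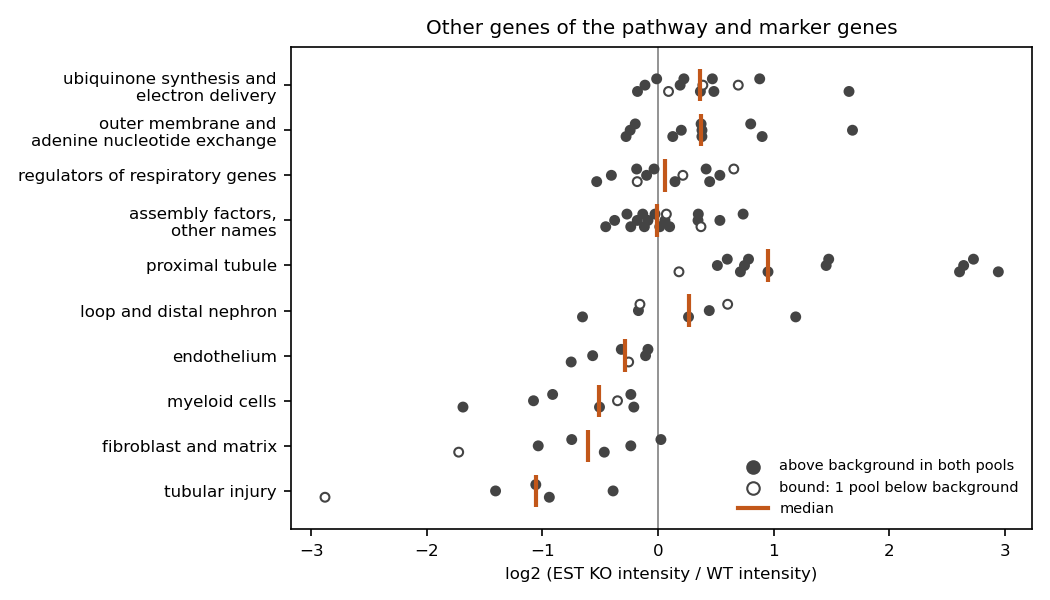
Log2 ratio of EST KO over WT intensity (horizontal axis) for measured genes of 10 lists, with the list median as a bar and open points for lower bounds where 1 pool was below background. Medians were 0.37 for ubiquinone and for outer membrane genes, −0.01 for assembly factors, 0.95 for proximal tubule markers and −1.06 for tubular injury markers.

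Some member promoters hold short sequences that factors of respiratory genes are known to bind, though most lack each of them. RefSeq promoters (GRCm38.p6, 250 bases before to 50 after the start) were found for 81 of the 100 genes, 87 promoters in all, and searched on both strands. The letters GCATGCGC, part of the nuclear respiratory factor 1 (NRF1) site, stood in 13.8% of member promoters, against 5.06% of promoters of measured genes and 2.71% of all 32851 promoters. The full palindromic site, which adds GC before those letters, stood in 6.90%, against 2.12% and 0.97%. The GABPA (ETS) letters ACCGGAAG or CCGGAAGT, which overlap each other, stood in 17.2%, against 9.77% and 4.95%, and the YY1 letters AAGATGGC in 13.8%, against 4.41% and 2.75%. The receptor element TCAAGGTCA, bound by the product of Esrra, stood in 2 member promoters (2.30%, against 0.22% and 0.42%). Median CpG counts were 20 per member promoter and 21 per promoter of a measured gene.

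Members with and without these letters are set side by side, with no test. The median log2 ratio was 0.40 for 11 measured members with GCATGCGC and 0.35 for 59 without, 0.33 for 14 with the ETS letters and 0.37 for 56 without, and 0.38 for 12 with the YY1 letters and 0.36 for 58 without. It was lower with the full NRF1 site, at 0.17 for 5 members (3 of them higher in the EST KO pool) against 0.37 for 65 without (55 higher), and 0.29 for 2 with the receptor element against 0.37 for 68 without. The 4 stretches below, each on the gene's own strand with GCATGCGC in capitals, are shown because they carry the same letters at differing ratios: Cycs (log2 0.49), Atp5k (0.38), Cox6a1 (−0.01) and Ndufaf4 (−0.27). Ndufa6 (0.94), Sdhb (0.79), Ndufa8 (0.74) and Uqcrc1 (0.54) carry them too, at higher ratios, and are not printed. They lie upstream of the start at chr6:50566577-50566674 (minus strand), chr5:108434400-108434494 (minus), chr5:115349066-115349165 (minus) and chr4:24897925-24898024 (plus).
Cycs: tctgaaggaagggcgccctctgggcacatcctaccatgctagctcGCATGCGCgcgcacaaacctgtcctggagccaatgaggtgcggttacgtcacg
Atp5k: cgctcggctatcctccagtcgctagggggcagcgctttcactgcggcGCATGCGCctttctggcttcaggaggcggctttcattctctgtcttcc
Cox6a1: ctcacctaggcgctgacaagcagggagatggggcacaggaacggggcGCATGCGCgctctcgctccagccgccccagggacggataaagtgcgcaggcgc
Ndufaf4: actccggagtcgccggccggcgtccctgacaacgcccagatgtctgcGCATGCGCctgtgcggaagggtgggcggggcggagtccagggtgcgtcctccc
The match describes letters in these windows and not binding.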

How the data were processed

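Per the labels' protocols, Trizol served to extract total RNA from 2 pools of kidney tissue, and cRNA carrying biotin was made by the Affymetrix procedure. Each genotype was read on 1 array. The authors deposited 1 linear intensity per probe set and array, for 45101 probe sets. Both arrays have a mean of 500.0 after the lowest and highest 2% of values are dropped; which scanner software and probe summary were used is not stated in the labels or the file. Array medians were 261.8 (WT) and 242.4 (EST KO), and no further scaling was applied. GEO's platform annotation gave 34958 probe sets 1 symbol, 932 several and 9211 none; only the first were used, through Entrez IDs, and 18195 genes resulted. The probe set with the highest mean was taken for each gene.

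With 1 array per genotype there is no test and no p-value; the number of arrays limits the precision. Groups are described by counts at 1.5-fold and 2-fold and by median log2 ratios, computed with Python 3.11.15, numpy 2.4.6, pandas 2.3.3, scipy 1.17.1 and statsmodels 0.14.6, and the summary was tested on simulated data. Values were given for the complex I core, complex II, the main subunits of the other complexes, isoform pairs and the 3 highest and 3 lowest ratios per complex; any member could be named. The members and lists were chosen with earlier results of these data known. Ndufa4 and Ndufa4l2 were counted with complex IV. Subunits without a probe set of a single symbol, such as Ndufa11, Cox7b and Cox14, are not analysed here among the members. Alternatives covered the background level (75th percentile or no floor), a pseudocount of 657.2, median centring, quantile normalization, removal of the trend on level (lowess, fraction 0.3), the choice of probe sets and the choice of members.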

Additional observations from a re-analysis of the deposited data

How the results depend on the processing

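Complex medians kept their sign in every alternative run, and the count of members at least 1.5-fold higher ran from 12 (quantile normalization) to 22 (median centring). All 17 such members stayed above 0 in each alternative and 7 of them stayed past 1.5-fold in all. With no floor, 1 member was at least 1.5-fold lower, against 0 with it. A total of 17 members changed sign in at least 1 alternative, none of them with a log2 ratio over 0.38. Values were called stable when they moved by less than 0.22 (log2), the spread of 1 probe set. The median of assembly factors with other names (−0.01) became 0.015 with the 75th percentile background, with no floor and without probe sets of the _s_at and _x_at kinds, 0.050 with median centring, 0.053 with the trend removed and 0.0003 under quantile normalization, so it has no direction. ND5 was at −0.12 with the trend removed and Atpif1 at 0.18 with the mean of its probe sets. The share of measured members that were higher ran from 76.7% under quantile normalization to 89.0% for structural subunits alone, against 82.6%. The median of all measured genes, −0.06, moved by under 0.1 with every scaling. The restriction to brighter members, the placing of Ndufa4 and the second brightest probe set were tried after the data had been seen. No paired analysis was possible because each genotype has 1 array. Dim probe sets limit what can be said of assembly factors and tissue isoforms: these made up most of the 14 members below background in both pools, the others being the subunits Ndufb4 and Cox7c.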

Other observations

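Another 11 probe sets carry several symbols, one of them a member name, and were not used. Of these, 9 lay above background in at least 1 pool and 7 of the 9 were higher in the EST KO pool. A probe set for Ndufs6 and Ndufs6b, a zinc-binding subunit of complex I and its copy, read 2691 (WT) and 5821 (EST KO) (log2 1.11). One for Ndufab1 and its pseudogene read 3228 and 6316 (log2 0.97), closer to the brightest probe set of Ndufab1 than to its second. Those for Ndufb4 and its copies gave log2 ratios of 0.76 and 0.03, and the probe set for Ndufs5 and its pseudogene read 1200.2 and 955 (log2 −0.33), against 0.64 for the probe set that names Ndufs5 alone. These cannot be assigned to 1 gene.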
